A study of Homo sapiens with 5 samples.

Results

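Within a set of 5 RNA-seq libraries from fibroblasts in RAS-induced senescence, the libraries that carry the letter C differed from the others across many genes. This account compares the 2 C libraries, 1 with a control antagomir and 1 with anti-miR-146a, with the other 3, which are control B and anti-miR-146a A and B. An antagomir is a chemically modified oligonucleotide that binds and blocks a microRNA. The C libraries were set apart because they held more HRAS reads, so the difference is described here and supports no inference about what set it. All libraries came from IMR90, a line of normal human lung fibroblasts, infected with a retrovirus expressing RASV12, an active form of RAS. The cells were selected with puromycin at 1.5 ug/ml for 3 days, reseeded at day 10 of infection, given an antagomir by transfection 24 hours on and collected a further 24 hours after that. Every library compared here therefore carried RASV12, and cells with an empty vector were not analysed here. The labels do not say what the letter stands for or that the libraries came from separate cultures. A difference in RAS dose, in infection and in culture therefore cannot be told apart, and the spread between libraries may be technical.

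Active RAS signals through the RAF, MEK and ERK kinases, and in normal fibroblasts sustained signalling ends in a stable growth arrest called oncogene-induced senescence. Arrested cells switch off proliferation genes through the p53 and RB pathways and release a senescence-associated secretory phenotype, a mixture of cytokines, chemokines, proteases and growth factors. Interleukin-1alpha at the cell surface and NF-kappaB in the nucleus are known to drive much of that secretion, and miR-146a is known to act on the same pathway.

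HRAS, which encodes one of the RAS proteins, lies on chromosome 11 from 532242 to 537287 in GRCh38. It was measured at 10250 normalized reads in control C and at 9631 in anti-miR-146a C. The values were 3610 in control B, 4265 in anti-miR-146a A and 4008 in anti-miR-146a B. The log2 difference was 1.34 (SE 0.08), and these values chose the split: the lowest C library stood at 9631 and the highest of the others at 4265, with none between. Reads from the endogenous gene and from the virus cannot be told apart in these values.

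The libraries held 8430859 to 9283950 reads in the genes used here, which are a part of the genes of the experiment, so the sums are not full depths. Size factors were 0.989 to 1.10. Genes above 0 numbered 10768 and 10993 in the C libraries and 9957 to 10369 in the others. Fibroblast markers were present in every library, and their summed level was 243487 and 226867 in the C libraries against 172946 to 198951 in the others. Of the 8 that have a value, 6 were above all others in both C libraries, beside 24.3% of all tested genes (defined below). DCN went the other way, at 4994 and 5527 in the C libraries against 5512 to 5913. Of 9 epithelial markers, 5 were under 10 in every library, CDH1 lay between 0 and 0.944, DSP stood at 302 and 280 in the C libraries against 162 to 199 and CLDN4 at 43.8 and 43.5 against 55.4 to 70.3, and the sums were 394 and 342 in the C libraries against 261 to 304. Of 8 endothelial markers, FLT1 stood at 232 and 203 in the C libraries against 62.3 to 73.5, CLDN5 at 48.5 and 56.6 against 19.2 to 29.3, ESAM at 16.8 and 16.2 against 19.1 to 30.2, and CDH5 at 4.72 to 9.10 in all, with sums of 464 and 444 against 223 to 237. Of 10 leukocyte markers, CD3E and CD3G were at 0 in every library, and the sums were 56.9 and 64.7 in the C libraries against 59.2 to 81.2. The part of these markers in the differences below was not tested. In bulk samples such as these, a change in the number of cells of a type and a change in RNA per cell cannot be told apart.

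Of 6317 genes with at least 10 normalized reads in at least 2 libraries, 191 were at least 2-fold higher in the C library with each antagomir (3.02% of tested genes) and 75 at least 2-fold lower (1.19%). The total was 266 (4.21%). For this count, control C was set against control B, and anti-miR-146a C against the mean of anti-miR-146a A and B, so the comparisons share no library. Only 5 genes were at least 2-fold apart with both antagomirs in opposite directions. In the control antagomir 335 genes were 2-fold higher and 198 lower in C, and with anti-miR-146a 322 were higher and 170 lower. Between anti-miR-146a A and B, 44 genes were 2-fold higher and 48 lower. The median absolute log2 difference was 0.27 for control C against B, 0.26 for anti-miR-146a C against A and B, and 0.12 for A against B. Across genes, which are not independent replicates, the C differences with the 2 antagomirs had a Pearson correlation of 0.66 and a Spearman correlation of 0.60. The median C difference over all tested genes was 0.02 on the log2 scale.

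**Figure D1:**
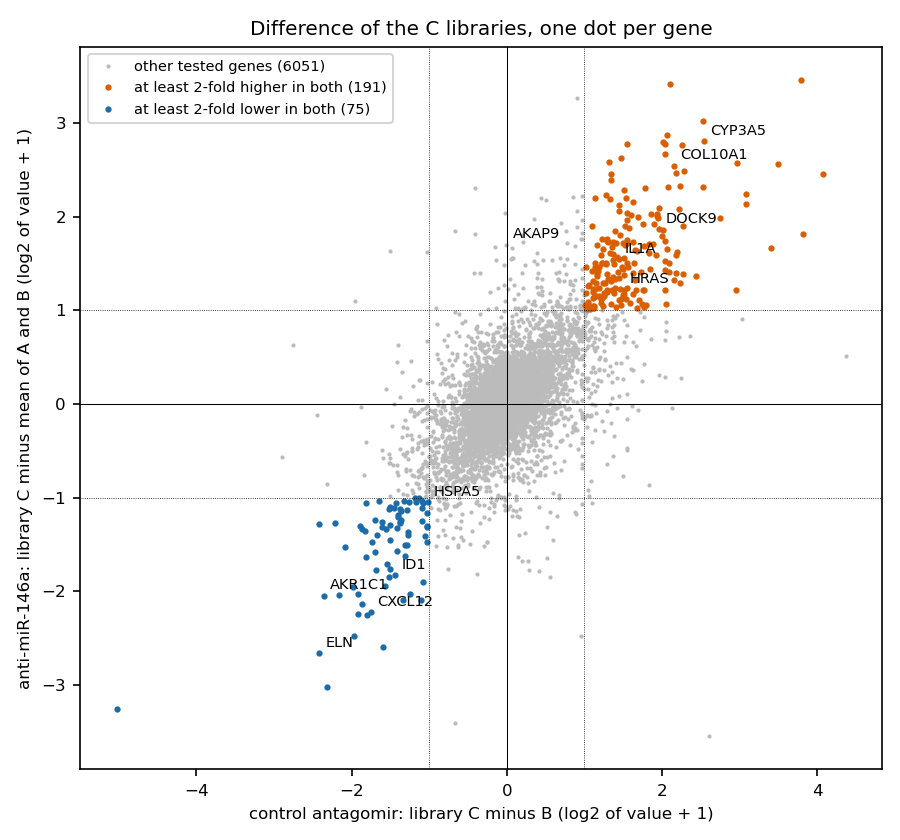
Each dot is 1 of 6317 tested genes. The x axis is the log2 difference of control C minus control B, and the y axis that of anti-miR-146a C minus the mean of A and B, both of value + 1, with dotted lines at 2-fold. The 191 orange genes were at least 2-fold higher with both antagomirs and the 75 blue genes at least 2-fold lower, and AKAP9 sits on the vertical axis at -0.01 and 1.70.

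By position of the libraries, 1532 genes (24.3%) lay in both C libraries above all 3 others and 1285 (20.3%) below them, which is 2817 (44.6%) in all. Of the 266 genes at least 2-fold apart with both antagomirs, 260 had no overlap of the groups. In a limma model with the antagomir as a term, 1866 genes had an adjusted p under 0.05 (29.5%), 1089 higher (17.2%) and 777 lower (12.3%) in the C libraries. After a correction for transcript GC content and length that split was 1039 higher and 1172 lower. Nothing is read from these shares, because the groups were chosen from the same libraries.

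The genes that stood out by size were mostly weakly expressed. The median of the mean normalized reads was 42.8 for the genes higher in C and 62.7 for those lower, against 309 for all tested genes. Among 782 tested long non-coding RNAs, 44 were at least 2-fold higher with both antagomirs (5.63%) and 4 lower (0.512%). Among 5168 protein-coding genes, 126 were higher (2.44%) and 65 lower (1.26%). Among 287 pseudogenes, 19 were higher (6.62%) and 4 lower (1.39%). At a mean under 100 reads 123 of 2133 genes were higher and 44 lower, while among the 102 most abundant genes 1 was higher and 2 were lower. The called differences ran from -4.01 for HLF, a transcription factor listed at 0 and 2.02 in the C libraries and at 23.6 to 32.9 in the others, to 3.60 for the pseudogene ATF1P1 at 26.1 and 39.4 against 0.954 to 3.78. The filter on reads could be met by the C libraries alone, as for ATF1P1, or by the others alone, as for HLF. Weak genes could thus be tested because they were high in 1 group. With a filter of 50, 102 genes were higher and 46 lower. The part of the filter in the counts by class and by mean level was not tested.

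Of the 12 genes with the highest C difference at a mean of at least 100 reads, the top 3 were FRG2FP, CYP3A5 and COL10A1. FRG2FP, a pseudogene on chromosome 3, stood at 855 and 900 in the C libraries and at 107 to 148 in the others (log2 difference 2.81, SE 0.13). CYP3A5, a cytochrome P450 that oxidises steroids and drugs, gave 176 in control C and 263 in anti-miR-146a C against 29.6, 36.8 and 36.5 in control B and anti-miR-146a A and B (2.69, SE 0.17). COL10A1, the type X collagen made by hypertrophic cartilage, gave 681 and 645 against 153, 99.1 and 121 (2.38, SE 0.13). The groups did not overlap for any of these genes, as for 260 of the 266 genes from which they were picked. DOCK9, an exchange factor for the small GTPase CDC42, stood at 2712 and 3788 against 696, 1046 and 1025 (1.91, SE 0.08). BIRC3, an inhibitor of apoptosis induced by NF-kappaB, stood at 1659 and 1935 against 681, 462 and 367 (1.82, SE 0.16). DNAH17, an axonemal dynein chain, stood at 234 and 591 against 71.6, 145 and 150 (1.87, SE 0.13). The secreted cysteine protease inhibitors CST4 and CST1 stood at 938 and 916 against 221 to 265 and at 2321 and 2133 against 607 to 696. The rest of the 12 were the pseudogenes ICE2P1 (2.29) and CEACAMP10 (1.99) and the long non-coding RNAs CTD-3037G24.5 (2.06) and AC007126.1 (1.92), all log2 differences.

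Of the 12 genes with the lowest C difference, AKR1C1 and AKR1C2, aldo-keto reductases that inactivate steroids and carbonyls, came first. AKR1C1 gave 598 in control C and 572 in anti-miR-146a C against 3068 in control B and 2191 and 2557 in anti-miR-146a A and B, and its log2 difference was -2.18 (SE 0.10). AKR1C2 gave 56.9 and 32.4 against 201, 158 and 158 (-2.06, SE 0.16). CXCL12, the chemokine that binds CXCR4, stood at 94.2 and 52.6 against 320, 249 and 248 (-2.02, SE 0.14). All C values of these genes lay below all others, which nearly follows from how they were picked. IL18R1, a chain of the interleukin-18 receptor, stood at 66.2 and 69.8 against 252, 320 and 259 (-1.98, SE 0.14). CYP1B1, a cytochrome P450 induced by the aryl hydrocarbon receptor, stood at 3894 and 2209 against 14243, 5896 and 5293 (-1.57, SE 0.10). EDNRB, an endothelin receptor, stood at 201 and 211 against 669, 633 and 549 (-1.59, SE 0.11). GAREM1, an adaptor that links growth factor receptors to ERK, stood at 638 and 758 against 1861, 2582 and 2369 (-1.64, SE 0.09). The others were the matrix collagen COL14A1 (-1.78), the claudin CLDN23 (-1.71), the BMP target ID1 (-1.66), the transcription factor ATOH8 (-1.65) and the depalmitoylase ABHD17C (-1.51). AKR1C1 with AKR1C2, CST1 with CST4, HSPA1B, the histones and the pseudogenes have near-identical copies, so their reads may be split between copies. No source used here gives the strand setting of the counts, so reads of overlapping genes such as CCL3 and AC069363.1 cannot be told apart.

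**Figure D2:**
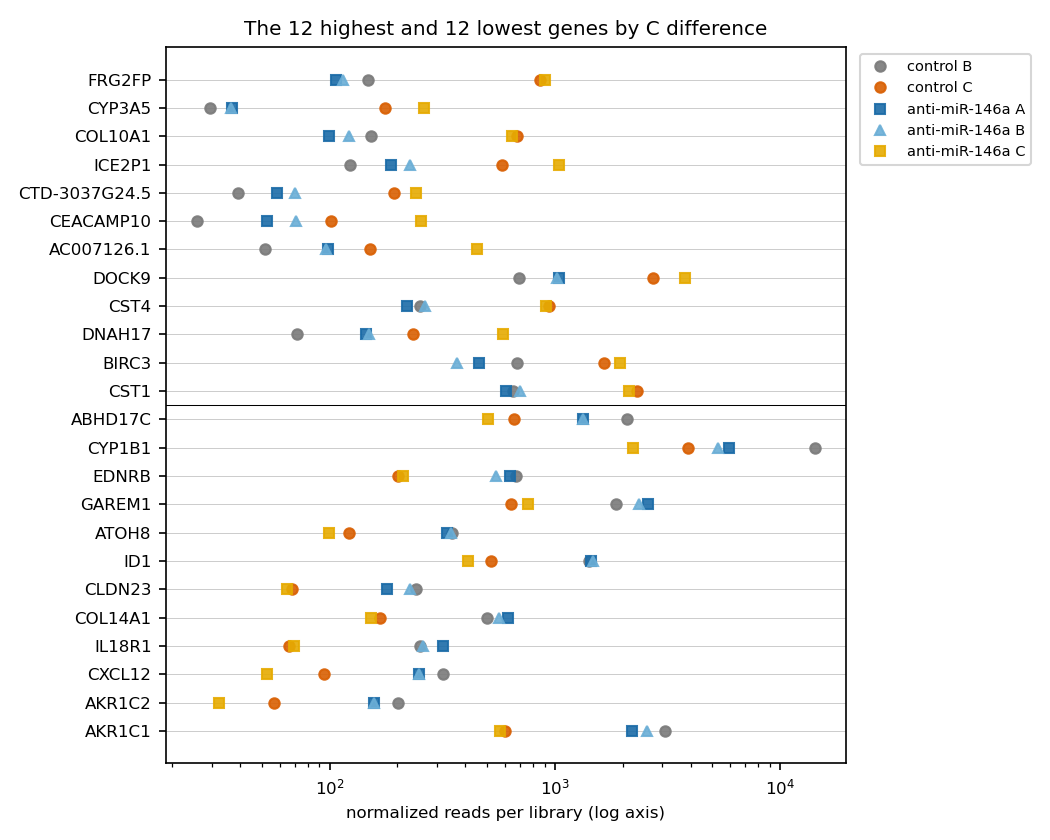
Normalized reads per library (log x axis) of the 12 genes with the highest and the 12 with the lowest C difference among those at least 2-fold apart with both antagomirs and with a mean of at least 100. Each point is 1 library. In the upper block both C libraries lie to the right of the other 3, and in the lower block to the left, as for AKR1C1 at 598 and 572 against 2191 to 3068.

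The counts by list that follow stand beside the shares over all tested genes, 24.3% above and 20.3% below all other libraries. For genes at least 2-fold apart with both antagomirs those shares were 3.02% higher and 1.19% lower. Nothing is read from the counts by list beyond that. The genes used here have symbols mostly from A to I, so many lists were tested only in part. Values were present for 7 of 24 RAS family and proximal signalling genes and for 12 of 24 NF-kappaB genes. Of 19 tested genes of the RAS and ERK output list, none was 2-fold apart with both antagomirs, 10 were above and 2 below all other libraries, 14 were higher and 5 lower in the fitted difference, and the median difference was 0.24, against 0.02 over all tested genes. The lowest of that list was BMP2, at 15062 and 17401 against 28161, 30879 and 30354 (-0.85, SE 0.08). IER3, an immediate early gene of the same list, was level at 31718 and 28501 against 28682 to 32066 (-0.06, SE 0.08). DUSP6, a phosphatase that switches ERK off, was 10621 and 11169 in the C libraries against 7733, 7153 and 6510 (0.60, SE 0.08). DUSP5, another ERK phosphatase, was 10158 and 8343 against 5395, 4607 and 4171 (0.92, SE 0.08). EGR1, an immediate early transcription factor, was 8615 and 8271 against 4930, 4593 and 4608 (0.83, SE 0.07). FOSL1, an AP-1 subunit, was 6399 and 7176 against 5251, 5993 and 6389 (0.24, SE 0.08), so its groups barely separated. Of 14 tested AP-1 and immediate early genes 10 were above and 2 below all others, with a median of 0.51. EGR3 reached 250 and 309 against 130 to 138. CCND1, the cyclin that ERK signalling induces in G1, was 47945 and 51743 against 33178, 37819 and 36649 (0.50, SE 0.08). CCND2, another G1 cyclin, was 4281 and 4718 against 2035, 2506 and 2171 (1.04, SE 0.08).

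Growth factor genes did not move together. Of 16 tested growth factor genes 4 were above all others, near the share of 24.3% over all tested genes, and 8 below, with a median of -0.36. HBEGF, an EGF receptor ligand, was 2329 in control C against 1281 in control B, and 1317 in anti-miR-146a C against 708 and 732 in A and B, with log2 differences of 0.86 and 0.87. EREG, another such ligand, was 3793 and 3768 in the C libraries against 6815, 7128 and 6057 (-0.82, SE 0.08). AREG, also a ligand of this receptor, was 2065 and 1750 against 2848 to 3105 (-0.66, SE 0.08). FGF5 was 2349 and 2645 against 1091 to 1352 (1.02, SE 0.10), while FGF7, a mesenchymal growth factor for epithelium, was 2418 and 2118 against 3538 to 5515 (-0.95, SE 0.09).

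The interleukin-1 genes were higher and their receptor was lower in the C libraries. IL1A gave 2124 in control C and 2169 in anti-miR-146a C, against 782 in control B and 746 and 735 in anti-miR-146a A and B (1.50, SE 0.08). IL1B gave 48996 and 54881 against 21508, 25497 and 21335 (1.21, SE 0.09). IL1R1, which encodes their signalling receptor, gave 2725 and 2072 against 5791, 4257 and 4721 (-1.10, SE 0.08). The C libraries did not overlap the others for any of these, as for most genes at least 2-fold apart with both antagomirs. CSF2, which encodes the growth factor GM-CSF, gave 4924 and 5591 against 2393, 2703 and 2542 (1.07, SE 0.08), with both antagomirs just past the 2-fold limit at 1.04 and 1.09. Of 12 tested interleukin and colony-stimulating factor genes these 3 were at least 2-fold higher, IL1R1 was the 1 lower, and the median of 0.006 took the other sign under upper quartile scaling and under GC and length correction. IL1A and IL1B lie within 200 kb of each other on chromosome 2, as do IL1R1 and IL18R1.

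Of 15 tested chemokine genes 12 were higher and 3 lower in C, 8 were above all others and CXCL12 alone below them, 2 were at least 2-fold higher and 1 lower, and the median was 0.33. CCL3, a chemokine for macrophages, was 2426 and 3865 in the C libraries against 969, 1308 and 1219 (1.49, SE 0.09). CXCL10, an interferon-inducible chemokine for T cells, was 311 and 337 against 112, 175 and 137 (1.27, SE 0.14). CXCL5, a neutrophil chemokine, was 38674 and 35835 against 24652, 18917 and 15943 (0.88, SE 0.10). CXCL8, the interleukin-8 gene and a hallmark of the secretory phenotype, was 126185 and 125152 against 134537, 124690 and 100660, so that the groups overlapped (0.05, SE 0.11), and its sign turned under GC and length correction. CCL2, a monocyte chemokine, was 2029 and 1331 against 1237, 899 and 808 (0.67, SE 0.09). Of 21 tested type I interferon response genes 6 were higher and 15 lower in C, 2 were above and 7 below all others, with a median of -0.15, and HERC5, a ligase for the ubiquitin-like ISG15, was at least 2-fold lower.

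Genes that NF-kappaB activates included the adhesion molecule ICAM1, at 5439 and 5191 in the C libraries against 2527, 2351 and 2682 (1.07, SE 0.08). Of 12 tested genes of that list 8 were above and 1 below all others, 2 were at least 2-fold higher and none lower, and the median was 0.29. The promoters of ICAM1, BIRC3 and CXCL10 are printed as examples, all of genes higher in C, that hold an NF-kappaB word (GGNNTTTCC, on either strand). IL18R1, which was lower in C, and BTG2, which was higher, also hold it and are not printed. The printed promoters are RefSeq sequences of GRCh38.p14, from 250 bases before to 50 bases after the gene start. They are written 5′ to 3′ along the gene, with the word in capitals. In each the word lies on the strand opposite to the gene. ICAM1 is at chr19:10270870-10271169 on the plus strand, BIRC3 at chr11:102317234-102317533 on the plus strand and CXCL10 at chr4:76023448-76023747 on the minus strand.
ICAM1: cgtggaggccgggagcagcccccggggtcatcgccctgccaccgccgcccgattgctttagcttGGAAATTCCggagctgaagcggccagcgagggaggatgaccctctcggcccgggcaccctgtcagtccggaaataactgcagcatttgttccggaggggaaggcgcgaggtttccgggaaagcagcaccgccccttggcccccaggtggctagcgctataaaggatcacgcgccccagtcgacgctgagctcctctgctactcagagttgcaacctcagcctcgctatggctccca
BIRC3: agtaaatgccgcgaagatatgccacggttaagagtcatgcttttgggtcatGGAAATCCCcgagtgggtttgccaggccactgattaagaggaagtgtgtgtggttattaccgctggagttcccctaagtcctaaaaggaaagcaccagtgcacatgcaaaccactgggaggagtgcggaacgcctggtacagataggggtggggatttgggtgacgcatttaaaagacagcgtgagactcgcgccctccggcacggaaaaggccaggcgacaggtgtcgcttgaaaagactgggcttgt
CXCL10: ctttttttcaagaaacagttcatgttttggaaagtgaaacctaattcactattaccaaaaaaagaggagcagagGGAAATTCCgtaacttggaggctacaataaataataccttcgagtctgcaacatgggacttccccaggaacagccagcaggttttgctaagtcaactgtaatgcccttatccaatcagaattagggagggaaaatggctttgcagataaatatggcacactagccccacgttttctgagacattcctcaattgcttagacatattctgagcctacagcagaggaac

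The word begins 186 bases before the start in ICAM1, 199 in BIRC3 and 176 in CXCL10. It occurred in 6.26% of all 27305 RefSeq promoters of this length and in 6.13% of the 4011 promoters of tested genes. Of the 93 genes at least 2-fold higher with a promoter, 11 held it (11.8%), and of the 40 lower genes 2 held it (5.0%), among them IL18R1. The AP-1 word TGACTCA was present in 5 of the 93 (5.38%), IL1A among them, and in 3.19% of tested promoters. The ETS word CCGGAAGT was present in none of the 93 and none of the 40, and in 7.85% of tested promoters. The word TGACGTCA was in 2 of the 93 (2.15%) and 2 of the 40, beside 3.14% of tested promoters. CACGTG was in 5 of the 93 (5.38%) and 3 of the 40, beside 10.5%, and TTTGAA in 12 of the 93 (12.9%) and 5 of the 40, beside 9.77%. These matches are descriptions of letters, and the words were chosen after values were seen.

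**Figure D3:**
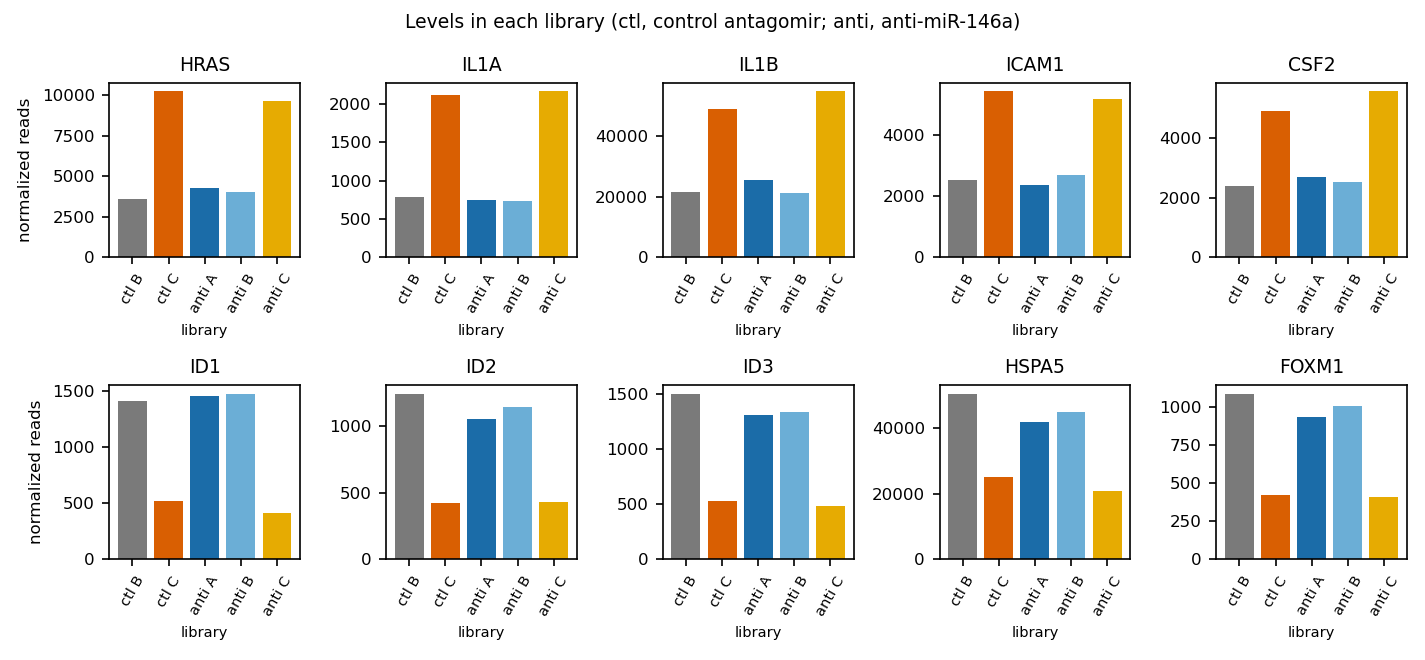
Bars give normalized reads in each of the 5 libraries for 10 genes, each panel with its own axis from 0 (ctl, control antagomir; anti, anti-miR-146a). HRAS, IL1A, IL1B, ICAM1 and CSF2 were higher in both C libraries, and ID1, ID2, ID3, HSPA5 and FOXM1 lower, as for IL1A at 2124 and 2169 against 735 to 782.

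The 4 inhibitor of DNA binding genes, targets of bone morphogenetic protein (BMP) signalling that block basic helix-loop-helix factors, were all lower in the C libraries. ID1 gave 411 in anti-miR-146a C and 521 in control C against 1413, 1451 and 1475 (-1.66, SE 0.10). ID2 gave 425 and 434 against 1248, 1057 and 1144 (-1.43, SE 0.09). ID3 gave 527 and 481 against 1503, 1307 and 1333 (-1.48, SE 0.09). None of their values in C reached a value of the other libraries, as for most genes at least 2-fold apart with both antagomirs. ID4 gave 48.5 and 67.8 against 159, 160 and 162 (-1.43, SE 0.16). BMP2, a ligand of the pathway, gave 15062 and 17401 against 28161, 30879 and 30354 (-0.85, SE 0.08). BAMBI, a pseudoreceptor that dampens the pathway, gave 1444 and 1308 against 2323, 1916 and 2128 (-0.65, SE 0.08). Of 24 tested genes of the BMP and TGF-beta list 5 were at least 2-fold lower and none higher, 13 lay below and 6 above all others, and the median was -0.34.

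HSPA5, the main chaperone of the endoplasmic reticulum and a binding partner of the unfolded protein response sensors, gave 24938 in control C and 20945 in anti-miR-146a C. The other libraries gave 50550, 41778 and 44893, so the groups did not overlap (-1.04, SE 0.08). HYOU1, another chaperone there, gave 4690 and 4665 against 7557, 8468 and 8957 (-0.81, SE 0.08). DERL3, which helps remove misfolded proteins, gave 18.7 and 11.1 against 55.4, 41.5 and 43.8 (-1.71, SE 0.25). HSP90B1 and CALR, also chaperones of that compartment, differed by less: HSP90B1 gave 16181 and 13823 against 22576, 15174 and 14410, which overlap, and CALR gave 22389 and 21445 against 23936, 22205 and 24530. Of 36 tested genes of the list 14 lay below and 7 above all others, 2 were at least 2-fold lower, and the median was -0.12. The HSPA5 promoter (RefSeq, GRCh38.p14, chr9:125241294-125241593, minus strand, the same window) is printed because it is the only one of a called gene that holds the endoplasmic reticulum stress element, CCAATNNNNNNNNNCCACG, in capitals. It begins 66 bases before the start. The element was in 0.0806% of all promoters and in 9 of the promoters of tested genes (0.224%).
HSPA5: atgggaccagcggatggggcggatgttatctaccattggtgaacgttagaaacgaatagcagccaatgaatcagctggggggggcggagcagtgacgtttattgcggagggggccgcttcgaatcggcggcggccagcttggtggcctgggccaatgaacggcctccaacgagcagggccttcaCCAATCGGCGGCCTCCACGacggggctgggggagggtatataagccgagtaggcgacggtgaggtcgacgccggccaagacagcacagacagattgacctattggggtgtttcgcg

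Proliferation genes were on balance lower in the C libraries. FOXM1, the transcription factor of late cell cycle genes, was 425 and 412 against 1091, 934 and 1010 (-1.29, SE 0.09). Of 36 tested mitosis and kinetochore genes none was above and 17 were below all others, 2 were at least 2-fold lower, and the median was -0.45. CENPM, a kinetochore protein, was 28.0 and 16.2 against 69.7, 45.3 and 50.2 (-1.41, SE 0.22). CDC20, an activator of the anaphase-promoting complex, was 214 and 163 against 375, 342 and 339 (-0.95, SE 0.11). CCNB1, the mitotic cyclin, was 447 and 351 against 860, 615 and 547 (-0.82, SE 0.10). CENPE, CENPF and ASPM differed from this: CENPF, for example, was 1435 and 1053 against 2091, 618 and 525, and overlapped. Of 37 tested DNA replication and repair genes 13 were below all others, beside a share of 20.3% over all tested genes, and 2 above, with a median of -0.18. Of 54 tested replication-dependent histone genes, 38 were below and 3 above all others, with a median of -0.50, and histone genes took 0.353% and 0.324% of reads in the C libraries against 0.447% to 0.503%. HIST1H3I was 419 and 351 against 952, 673 and 743 (-1.08, SE 0.10).

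The CDK inhibitor genes CDKN1A and CDKN2A were higher in C with both antagomirs, while CDKN1B, which encodes p27, was lower at 527 and 640 against 955, 773 and 715. CDKN1A, which encodes p21, was 26149 in control C against 16590 in control B, and 31721 in anti-miR-146a C against 24750 and 25920, a log2 difference of 0.47 (SE 0.09). CDKN2A, which encodes p16 and ARF, was 533 and 514 against 378, 404 and 401 (0.41, SE 0.10). Of 23 tested p53 target genes 15 were above and 4 below all others, with a median of 0.45. BTG2, an antiproliferative p53 target, was 2171 and 1779 against 1005, 838 and 915 (1.06, SE 0.09). GADD45A, a stress sensor, was 3839 and 3823 against 1969, 1806 and 1765 (1.04, SE 0.08). Of the 17 CDK inhibitor and G1 cyclin genes 9 were higher and 8 lower in C, and the list had a median of 0.03, which took the other sign under GC and length correction and under upper quartile scaling.

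The matrix genes split. Of 26 tested collagens 15 were above and 5 below all others, with a median of 0.26. COL1A1, the main fibrillar collagen chain, was 36154 and 35200 against 20882, 23684 and 24251 (0.66, SE 0.08), and COL1A2 was 21398 and 18771 against 15759 to 16388 (0.31, SE 0.08). COL11A1 was 62.5 and 60.7 against 15.5 to 24.8 (1.55, SE 0.25). ELN, which encodes elastin, was 14.0 and 21.2 against 79.2, 138 and 141 (-2.56, SE 0.19). The small proteoglycan FMOD (-1.55) and the elastic fibre protein EMILIN2 (-1.26) were also at least 2-fold lower. Of 25 tested matrix proteases and inhibitors 12 were above and 5 below all others, with a median of 0.37. ADAM19, a membrane protease, was 7448 and 6884 against 2099, 2290 and 2229 (1.70, SE 0.08). CTSS, a lysosomal protease of the same list, was 3085 and 2992 against 1425 to 1490 (1.06, SE 0.08). Of the 39 tested genes of the lysosome list, which leaves out CTSS, 25 were above and 2 below all others, with a median of 0.27. None of the 39 was at least 2-fold apart with both antagomirs. Of 19 tested YAP targets 10 were above and 2 below, with a median of 0.21, and CYR61, a matricellular protein, was 6335 and 4247 against 2151 to 2817 (1.02, SE 0.09). ANKRD1, another YAP target, was 107 and 145 against 49.6 to 53.9 (1.28, SE 0.17). Of 27 contractile and actin-binding genes 12 were above and 4 below, with a median of 0.18, and ACTB was 104935 and 96294 against 71126 to 78775.

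**Figure D4:**
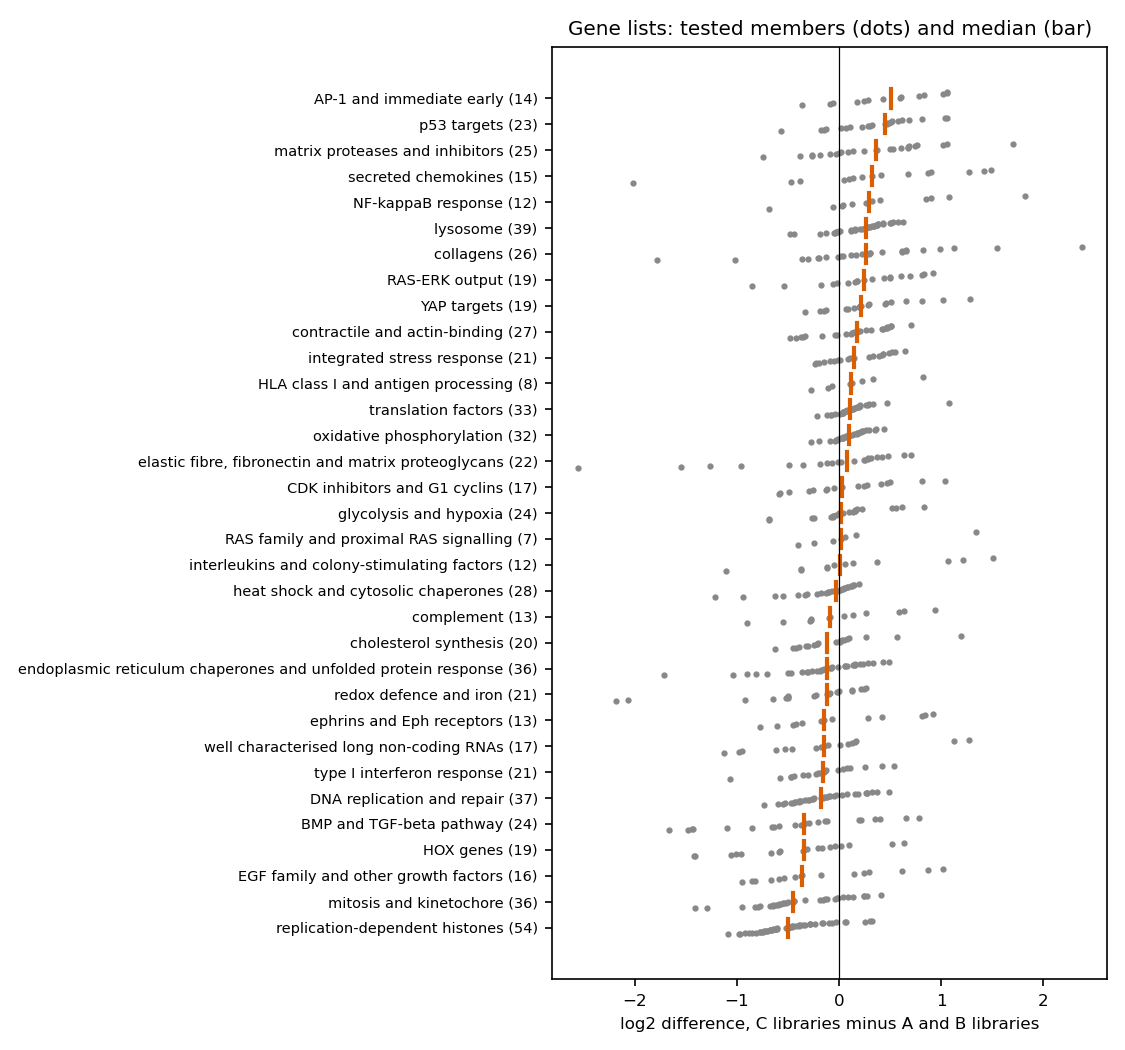
Each grey dot is the log2 difference (C libraries minus A and B libraries) of 1 tested gene of a list, and the orange bar is the list's median, with the number of tested genes in brackets. Histones (-0.50) and mitosis genes (-0.45) have the lowest medians and immediate early genes (0.51) and p53 targets (0.45) the highest. The median of CDK inhibitors and G1 cyclins, near 0, takes either sign with the scaling.

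HOX genes, which record position along the body axis, lay below all other libraries in C in 9 of 19 tested cases and above them in 1, with a median of -0.34. HOXA2 was 43.8 and 31.4 against 111, 85.0 and 96.7 (-1.42, SE 0.18). HOXA6, of the same cluster, was 10.3 and 9.10 against 33.4, 22.7 and 23.7 (-1.41, SE 0.31). Of 21 redox and iron genes 9 were below and 2 above, with a median of -0.12, the 2 at least 2-fold lower being AKR1C1 and AKR1C2. The heat shock list had a median of -0.02, with HSPA1B at 292 and 275 against 560 to 785 (-1.21, SE 0.11). ABCA1, which exports cholesterol, was 7625 and 8760 against 2865, 4814 and 3817 (1.19, SE 0.11), in a cholesterol list with a median of -0.12 over 20 genes.

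The remaining lists held no gene at least 2-fold apart with both antagomirs, apart from HRAS itself. The 7 tested RAS family and proximal signalling genes, of 24 in the list, had a median of 0.02, which took the other sign under both scalings. Medians were 0.12 for 8 HLA class I and antigen processing genes, -0.09 for 13 complement genes, 0.15 for 21 integrated stress response genes, -0.15 for 13 ephrin and Eph receptor genes, 0.02 for 24 glycolysis and hypoxia genes, 0.10 for 32 oxidative phosphorylation genes and 0.11 for 33 translation factors. EEF2, a translation elongation factor, was 47667 and 48586 in the C libraries against 45490 to 49520 (0.04, SE 0.08). C3, the central complement protein, was 6304 and 6466 against 6967, 7997 and 8887 (-0.28, SE 0.08). CD59, which protects cells from complement, was 19488 and 18177 against 11652 to 12498 (0.64, SE 0.08). GAPDH, a glycolytic enzyme, was 68627 and 69196 in the C libraries against 69100, 70443 and 77789 (-0.06, SE 0.09). The Eph receptor EPHA2 was 2546 and 2924 against 1382, 1750 and 1693 (0.81, SE 0.08).

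Among long non-coding RNAs, AC073130.1 had the highest difference at a mean of at least 50 reads, at 63.4 and 200 in the C libraries against 14.3, 40.6 and 38.3 (2.21, SE 0.20). AC026904.1 was 565 and 435 against 142 to 149 (1.73, SE 0.12). CTD-2334D19.1, the only one at that level at least 2-fold lower, was 44.8 and 32.4 against 142, 72.7 and 63.0 (-1.30, SE 0.20). CYTOR, a cytoskeleton-associated long non-coding RNA, was 955 and 1003 against 405, 497 and 472 (1.13, SE 0.10), and CCAT1, a colon cancer-associated transcript, was 109 and 139 against 42.0 to 70.8 (1.28, SE 0.19). Of 17 well characterised long non-coding RNAs 2 were above and 5 below all others, and the median was -0.15.

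Within 200 kb there were 36 pairs of genes at least 2-fold apart with both antagomirs, some of them overlapping, and 31 pairs had the same direction; no share over all tested genes was computed. CST1, CST2 and CST4 on chromosome 20 were all higher, as were CCL3 and CCL4 on chromosome 17, ICAM1 and ICAM4 on chromosome 19, and IL1A and IL1B. AKR1C1 and AKR1C2, IL1R1 and IL18R1, and HOXA2 and HOXA6 were all lower. ICAM4, a red cell adhesion molecule gene that begins 352 bases beyond ICAM1, was 63.4 and 79.9 against 21.0 to 27.7.

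Whether the C difference was of another size with anti-miR-146a than with the control antagomir was tested, because the split did not use it. Control B, control C and anti-miR-146a C are single libraries here, so the residual has 1 degree of freedom. That residual is the difference of anti-miR-146a A and B, moderated across genes. After moderation a gene's own A and B spread had little part in its SE. The log2 difference of A minus B was 0.40 for FGF2 and 0.006 for GOLGA4, and the interaction SE was 0.14 for both. The p-values therefore compare these libraries and not the conditions. By limma's interaction term, 151 of 6317 genes (2.39%) had an adjusted p under 0.05, 137 with a higher C difference under anti-miR-146a (2.17%) and 14 with a lower one (0.222%), and 755 had an unadjusted p under 0.05. In 134 of the 137, anti-miR-146a A and B both lay below control B, and in 129 control C was within 1.5-fold of anti-miR-146a C. In 112, controls B and C were within 1.5-fold of each other. The median C difference of the 137 was -0.28 with the control antagomir and 0.46 with anti-miR-146a. GOLGA4, a golgin of the trans-Golgi, was 12593 in control B, 13091 in control C and 10924 in anti-miR-146a C, but 3758 and 3741 in anti-miR-146a A and B (interaction 1.49, SE 0.14, limma adjusted p 3.42e-23). AKAP9, a scaffold for protein kinase A, was 3676, 3656 and 3457 in the first 3 of these and 1076 and 1051 in anti-miR-146a A and B (1.71, SE 0.15, limma adjusted p 1.48e-27). EIF5B, which joins ribosomal subunits, followed the same order at 4830, 5566 and 5067 against 1561 and 1504 (1.52, SE 0.14, limma adjusted p 4.05e-23).

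The 137 genes had a median transcript GC content of 37.9% and a median length of 5182 bases, against 48.8% and 3200 bases over all tested genes. Across genes, the C difference had a Spearman correlation with GC content of 0.04 in the control antagomir and of -0.23 with anti-miR-146a. After correction for GC content and length 66 genes passed, 33 in each direction. The part of GC content and length in the interaction beyond that correction was not tested. The 7SK locus on chromosome 17 from 35889558 to 35889804, a copy of the small nuclear RNA that restrains transcription elongation, stood at 28.6 and 179 in controls B and C. With anti-miR-146a it stood at 141 in A, 193 in B and 13.1 in C. Its interaction of -6.15 (SE 0.36, limma adjusted p 2.47e-60) had opposite signs of the C difference. Among the genes named above, the C difference was larger with anti-miR-146a for BIRC3 (interaction 0.95, SE 0.17) and smaller in size for CYP1B1 (0.53, SE 0.14). The interaction was also above 0 for CENPF (1.43, SE 0.16), CENPE (1.45, SE 0.21), ASPM (0.74, SE 0.21) and CDKN1B (0.64, SE 0.17). CENPF and CENPE were lower in C with the control antagomir (-0.54 and -0.58) and higher in C with anti-miR-146a (0.89 and 0.87). FGF2, a fibroblast growth factor, was 10288 in control C against 18948 in control B (interaction 0.91, SE 0.14). With anti-miR-146a it was 12090 in C, between the 13582 of A and the 10271 of B. BIRC3 and FGF2 had transcript GC contents of 34.8% and 37.5% and lengths of 5197 and 6775 bases. Which genes passed after the correction for GC content and length is not given here.  A p that misses the threshold does not show that the C difference was equal with both antagomirs.

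**Figure D5:**
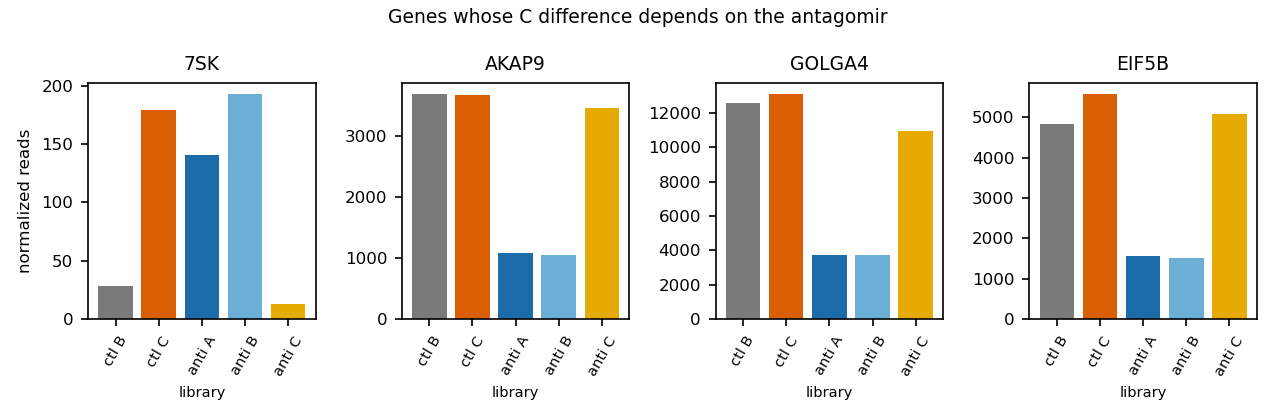
Bars give normalized reads in each library of the 4 genes with the smallest interaction p, each panel with its own axis from 0. AKAP9, GOLGA4 and EIF5B are low in anti-miR-146a A and B only, while the 7SK locus is high in control C and in anti-miR-146a A and B (179, 141 and 193).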

How the data were processed

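Total RNA of the 5 cell samples was depleted of ribosomal RNA and sequenced, per the labels. Reads went through Trimmomatic 0.35, STAR 2.5.1b (genome GRCh38) and DESeq2 1.22.2 according to the tools listed per the submitters' processing notes. No source used here names the counter, its strand setting or the annotation release. The deposited table holds a signal per library, which the values show to be reads divided by a size factor (every value is a whole multiple of its column's step within 1e-06). The authors' fold, a ratio on the linear scale, and the authors' p-value stand beside it and were not used here. The authors' table as used here has 18568 genes with symbols mostly from A to I, so read sums are part of the depth. Columns name the antagomir and a letter, so they were tied to a group and not to a single sample.

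Values were analysed as log2(value + 1), which understates differences of low genes, with limma 3.58.1 (trend) in R 4.3.3, for genes with at least 10 in at least 2 columns. The model had the antagomir and the letter C as terms. The interaction of both was a further fit, with Benjamini-Hochberg adjusted p under 0.05 as the threshold. Differences are C minus the rest with their SE, and the 2-fold count has no test. The fits were first run on simulated counts with the same dispersion for every gene and no antagomir, GC or length effect. That run cannot check the fits against such effects. Precision is limited by having 2 libraries against 3.

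Named genes were the 12 highest and 12 lowest at a mean of at least 100 that were at least 2-fold apart with both antagomirs; of long non-coding RNAs, the 4 highest and 4 lowest at a mean of at least 50; the 2-fold genes of each list, up to 4, or its 2 most abundant; up to 4 interaction genes; and fixed genes such as HRAS and IL1A. Other list genes named to illustrate a list were picked after their values were seen. Of the genes counted in the BMP and TGF-beta list, 1 is not reported here. The members, lists and promoter words were chosen with earlier results of these data known. GENCODE 29 gave GC content and length for 6297 of the 6317 tested genes, 5723 by the same versioned ID, and 4011 matched a RefSeq promoter (GRCh38.p14). Alternatives were other pseudocounts, filters, thresholds, upper quartile scaling, GC and length correction, and leaving out each library.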

Additional observations from a re-analysis of the deposited data

Results flagged for a closer look

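In 4 named genes the C difference between libraries was of another size with the control antagomir than with anti-miR-146a, by limma's interaction test. That test has 1 residual degree of freedom and single libraries for control B, control C and anti-miR-146a C, so it compares these libraries and not the conditions. Its SE is moderated across genes, and a gene's own spread had little part in it. The log2 interaction was -6.15 for the 7SK locus, which was higher in C with the control antagomir and lower in C with anti-miR-146a. It was 1.71 for AKAP9, 1.49 for GOLGA4 and 1.52 for EIF5B, each of which was low in anti-miR-146a A and B and near the same level in the other 3 libraries. They are the 4 with the smallest interaction p of the 151 that passed. The count was 66 after GC and length correction, and no explanation was tested.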

How the results depend on the processing

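The count of genes with a C difference (1866) ran from 1490 to 1982 when 1 library was left out, with 822 to 1202 higher and 595 to 797 lower. The count at least 2-fold apart with both antagomirs (266) ran from 247 to 273, with 178 to 194 higher and 69 to 79 lower, and it has no value without control B, control C or anti-miR-146a C. The interaction could not be fitted with a residual without a library. No paired analysis was possible because the deposited columns carry letters and not the replicate numbers of the labels, and the letter is what is compared. GC and length correction gave 1172 lower genes with a C difference, and 66 interaction genes, 33 in each direction. A filter of 50 gave 148 genes at least 2-fold apart (102 higher, 46 lower). Without a filter there were 545 (404 higher, 141 lower), with 826 genes with a C difference (498 higher, 328 lower) and 3471 interaction genes (2145 higher, 1326 lower). At an adjusted p of 0.01 there were 1139 genes with a C difference (697 higher, 442 lower) and 93 interaction genes (88 higher, 5 lower), and at 0.10 there were 35 lower interaction genes. A fold of 1.5 gave 722 genes (449 higher, 273 lower) and of 3 gave 66 (51 higher, 15 lower). Of 1053 alternative values of 96 named genes 776 moved by less than the spread and 277 by more, and of the 406 of 37 lists 266 and 139, with 1 reversed. For a gene the spread was the SD of anti-miR-146a A and B alone. It was near 0 for some genes, such as ABHD17C with an A minus B difference of 0.0005, where small shifts counted as moved. The epithelial marker median of -0.50 was 0.079 with a filter of 50, where fewer genes are tested. Sign changes of genes not at least 2-fold apart with both antagomirs were seen without anti-miR-146a C (7SK locus, AKAP9, EPHB2, CXCL8), without control B or C (FGF2, ATAD2, EIF4G2), without anti-miR-146a B (CXCL8) and under a scaling (CXCL8, EIF4G2). List medians near 0 also took the other sign in at least 1 setting: interleukins, RAS family, CDK inhibitors, heat shock, leukocyte markers, complement, ephrins, glycolysis and elastic fibre. The median of all genes stayed within -0.04 and 0.06. Count tests on reads recovered from the values, and TMM scaling, were not run. Having 2 libraries against 3 limits these counts.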
